A study of Homo sapiens with 15 samples.

Results

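The replication-dependent cluster histone genes are the protein-coding genes whose GENCODE 29 symbols start with HIST1H, HIST2H, HIST3H or HIST4H. GENCODE 29 holds 71 of them, and 36 were matched by identifier among the 57773 genes counted in 15 libraries; the other 35 were not analysed here. The 36 are 6 linker histone H1 genes, 9 H2A genes, 10 H2B genes, 7 H3 genes and 4 H4 genes. The HIST1 genes lie on chromosome 6, the HIST2 and HIST3 genes on chromosome 1 and HIST4H4 on chromosome 12. Of the 36 genes, 26 had enough counts to be tested and 10 did not.

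RNA was sequenced from femoral bone marrow of SCID-beige mice, which lack working B and T cells, after MM.1S cells had been injected by vein. MM.1S is 1 established human multiple myeloma cell line, here with green fluorescent protein and luciferase. Mice entered the study at a set tumour bioluminescence, 5 were assigned to each of 5 treatments, and 3 samples of each were sequenced. Femurs were flushed for marrow when limbs became paralysed, and severe toxicity was the other endpoint. The groups were bortezomib alone (a proteasome inhibitor, 0.25 mg/kg by weekly intraperitoneal injection), elesclomol alone (a copper-carrying drug, 25 mg/kg under the skin), the combination of both from the start, the delayed combination, in which elesclomol was added 14 days after inclusion, and PBS, given by vein each week. All groups carried the same cells in the same host strain, and the time between the last dose and collection is not given in the sources used here. The pellets also held mouse marrow cells, so reads of conserved mouse transcripts can have been counted for human genes. The labels name 3 samples per group without saying more of their source, so whether each is a separate mouse is not known. The p-values measure only the spread between these samples.

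DNA in the nucleus is wrapped around octamers of H2A, H2B, H3 and H4, and H1 binds the linker DNA between them. Cluster histone genes are transcribed mainly in S phase, when new DNA has to be packaged. Their messages usually end in a conserved stem-loop in place of a poly(A) tail, and the stem-loop binding protein SLBP and the U7 small nuclear ribonucleoprotein act there. A minority also makes polyadenylated transcripts in cells that do not divide. The libraries were prepared from total RNA after ribosomal RNA depletion, which keeps messages without a poly(A) tail.

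The stem-loop is shown because it sets these genes apart from other messages, and 18 of the 36 carry a complete 16-base copy in an annotated transcript. In GENCODE 29 transcripts (GRCh38) it starts 22 to 67 bases after the stop codon. The capitals mark the 6-base arms of the stem and the lower case the 4-base loop. The first form was found in 11 genes, among them HIST1H2AC and HIST2H2BE. The second was found in 3 H4 genes, HIST1H4H, HIST1H4J and HIST4H4, the third in HIST1H2BC, HIST1H2BD and HIST3H3, and the fourth in HIST1H2AG.
HIST1H2AC: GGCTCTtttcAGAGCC
HIST4H4: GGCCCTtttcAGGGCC
HIST1H2BD: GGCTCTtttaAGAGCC
HIST1H2AG: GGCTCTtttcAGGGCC

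For 14 of the 36 genes the annotated transcript stops at the stop codon. For HIST1H1E and HIST1H1T it ends inside the stem-loop, in the second arm of the stem, after 13 and 14 bases. In 12 genes some transcript runs over 100 bases beyond the stem-loop. Such lengths bear on counts, which are taken over annotated exons, and the annotation release behind the counts is not given in the sources used here.

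Promoters of 34 of the 36 genes were matched in RefSeq (GRCh38.p14), each 250 bases before the start and 50 after it. On either strand, CCAAT occurred in 31 of 34 (91.2%), against 34.6% of all 35116 promoters, and in 0 of the 3 H4 promoters. TATAAA occurred in 25 of 34 (73.5%), against 11.5% of all. The octamer ATTTGCAT occurred in 12 of 34 (35.3%), against 1.77% of all, and these 12 were 6 of 9 H2A and 6 of 10 H2B promoters. The part before the start is shown for 2 genes that differ in these matches, with matches to the 3 motifs in capitals and overlapping matches run together. HIST1H2AG is on the plus strand, chr6:27132793-27133042, and HIST1H4H on the minus strand, chr6:26285535-26285784.
HIST1H2AG: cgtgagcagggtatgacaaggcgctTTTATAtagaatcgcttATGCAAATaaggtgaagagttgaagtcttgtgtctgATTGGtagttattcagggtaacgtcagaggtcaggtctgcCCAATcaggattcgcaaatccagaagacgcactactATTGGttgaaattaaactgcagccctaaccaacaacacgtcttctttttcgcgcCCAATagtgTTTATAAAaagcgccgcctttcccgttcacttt
HIST1H4H: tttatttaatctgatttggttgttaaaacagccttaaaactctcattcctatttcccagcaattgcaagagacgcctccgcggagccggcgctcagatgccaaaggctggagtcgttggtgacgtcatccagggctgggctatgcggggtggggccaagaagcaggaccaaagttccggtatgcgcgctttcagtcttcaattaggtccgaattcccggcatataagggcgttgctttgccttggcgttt

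The HIST1H2AG stretch holds the octamer, several CCAAT matches and TATAAA, and the HIST1H4H stretch holds none of the 3. The first of these stretches is also the promoter of HIST1H2BJ, read the other way. In all, 6 pairs of an H2A and an H2B gene start back to back with 214 to 247 bases between their starts. They are HIST1H2AG with HIST1H2BJ, HIST1H2AC with HIST1H2BC, HIST1H2AI with HIST1H2BL, HIST2H2AC with HIST2H2BE, HIST3H2A with HIST3H2BB, and HIST1H2AA with HIST1H2BA. A match is a description of these letters, and binding was not measured.

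The libraries held 4500326 to 13161087 counts, and the delayed combination libraries were the deepest at 11060930 to 13161087. Genes of mitochondrial DNA took 35.0% to 40.3%, and the cluster histone genes 0.251% to 0.527%, or 16187 to 44523 counts per library. The 10 myeloma markers summed to 13009 to 16285 CPM (counts scaled to a common library size), and the 10 erythroid markers to 14.9 to 39.8 CPM in every library except elesclomol 1, at 343 CPM. Libraries differed in how gene levels ran with GC content. Across genes, the correlation with GC content reached 0.51 for bortezomib 1, 0.49 for combination 1 and 0.32 for delayed combination 2, while the other 12 libraries ranged over -0.35 to 0.16. By group it was -0.35 to -0.29 in PBS, -0.31 to 0.51 in bortezomib and -0.27 to 0.16 in elesclomol. It was -0.25 to 0.49 in the combination and -0.13 to 0.32 in the delayed combination. All PBS libraries lay near the low end, so treatment and GC effect partly run together in comparisons with PBS. This touches the histone genes, whose median GC content was 57.3% among those tested, against 47.4% over all tested genes.

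Per length of annotated exon, H1 genes stood highest. HIST1H1E (ENSG00000168298) averaged 1091 CPM per kb over the 15 libraries and HIST1H1C (ENSG00000187837) 782. They were followed by HIST1H4C at 464, HIST1H3D at 363, HIST1H1D at 314, HIST2H2AC at 283 and HIST1H2BK at 281 CPM per kb. So each of the 5 classes had a member among the 7 highest. HIST1H2BN was lowest of the 26 tested genes at 4.21 CPM per kb, over a long annotated exon length of 5477 bases. The order depends on GENCODE 29 lengths, which can differ from those of the annotation the counts were made with.

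**Figure D1:**
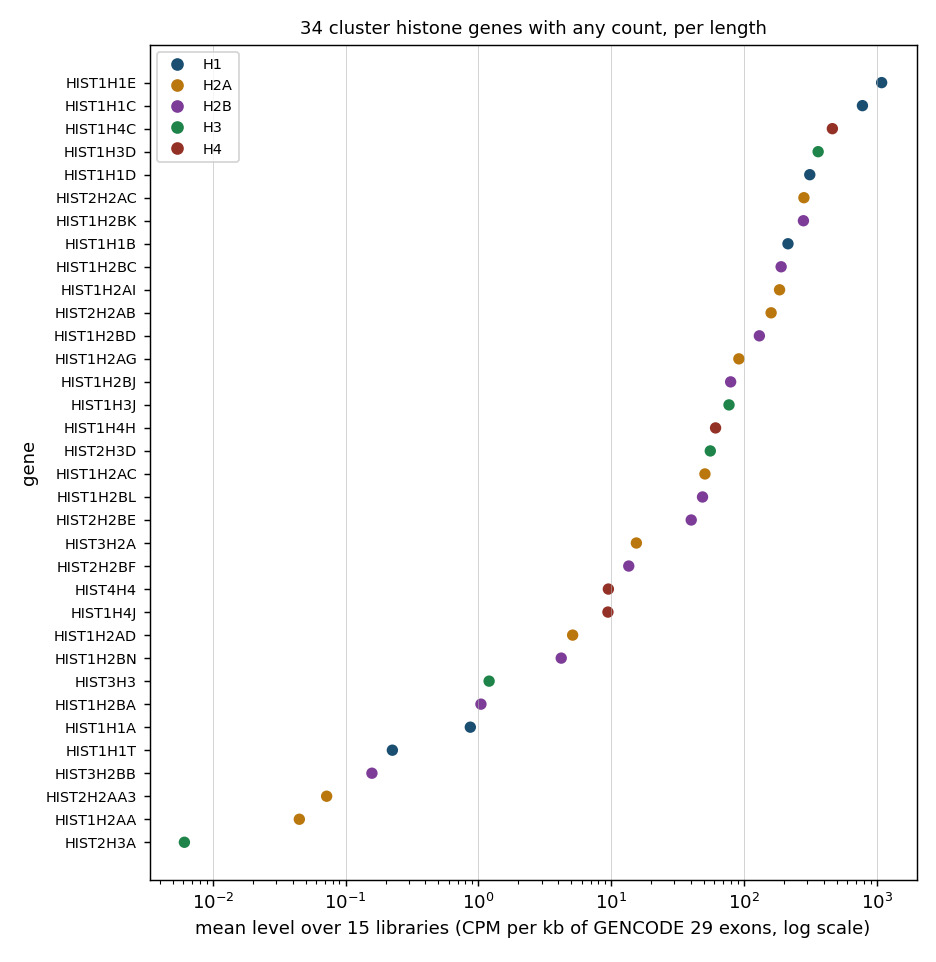
Mean level over 15 libraries of the 34 cluster histone genes with any count, in CPM per kb of GENCODE 29 exons on a log axis, with points coloured by histone class. HIST1H1E and HIST1H1C lead at 1091 and 782 CPM per kb, and the genes of the germ line lie near the bottom.

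The 10 untested genes held few counts. HIST1H1A, HIST3H3, HIST1H2BA, HIST3H2BB and HIST1H1T had 20 to 63 counts over all libraries, and HIST2H2AA3, HIST1H2AA and HIST2H3A had 4, 2 and 1. HIST2H3C and HIST2H3PS2 had 0 counts in every library, and a count of 0 allows 3 counts, or 0.242 to 0.675 CPM depending on the library (counting error only). HIST1H1T, HIST1H2AA, HIST1H2BA and HIST3H3 are known for expression in the male germ line. HIST2H2AA3 shares 100% of its 50-base windows with HIST2H2AA4, and HIST2H3A and HIST2H3C have the same transcript sequence, so their values are uncertain. Among tested genes the shared part was 81.2% for HIST1H4J, 80.4% for HIST2H3D, 62.3% for HIST1H2AI, 40.9% for HIST1H3J and 30.5% for HIST2H2AC, and it was 0% for HIST1H3D, HIST1H4C, HIST1H4H, HIST3H2A and HIST4H4 and for the H1 genes. Exons of 9 genes overlap another annotated gene, among the tested ones HIST1H2AD, HIST1H2BN, HIST1H3D, HIST1H3J, HIST2H2AB and HIST2H2BF, and the strand setting of the counting is not given in the sources used here.

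The first question of the design is what each treatment did to these genes relative to PBS. Summed over the 36 genes, the level was 5105, 2590.5 and 3514 CPM in the bortezomib libraries, against 3642, 3601 and 4042 CPM in the PBS libraries. The elesclomol libraries were at 3463, 3679 and 3688 CPM, the combination libraries at 3967, 2849.9 and 2754 CPM, and the delayed combination libraries at 3099, 3248 and 3019.7 CPM, against the same PBS values. The 3 delayed combination libraries all lay below every PBS library, and the other treatments overlapped PBS. Summed over the 26 tested genes and corrected for GC content and gene length, the combination levels of 3452, 2992 and 2674 CPM also all lay below PBS. The PBS levels were 3712, 3756 and 4312 CPM on this scale. Uncorrected means over the 36 genes were 3737 ± 1272 CPM for bortezomib, 3609.8 ± 127 CPM for elesclomol and 3190.5 ± 674 CPM for the combination. They were 3122 ± 116 CPM for the delayed combination and 3762 ± 244 CPM for PBS (SD, n = 3 each). In these bulk samples, fewer cells of a type and less RNA per cell cannot be told apart. Marrow marker genes were read beside these sums, and the erythroid list stood at 14.9 to 27.9 CPM in the delayed combination, against 25.1 to 35.4 CPM in PBS. The granulocyte list stood at 6.09 to 14.7 CPM in the delayed combination, against 14.7 to 28.4 CPM in PBS. Both lists overlapped between these groups, the granulocyte list by little, as did the macrophage and the T and NK cell lists. The granulocyte list averaged 10.1 ± 4.34 CPM in the delayed combination and 20.3 ± 7.21 CPM in PBS (SD, n = 3 each). The stromal and bone list averaged 188 ± 54.1 CPM in the delayed combination and 119 ± 15.5 CPM in PBS (SD, n = 3 each), and overlapped by little. The endothelial list, at 2.5 to 5.66 CPM in the delayed combination against 0.690 to 2.25 CPM in PBS, and the B cell list, at 13.6 to 29.2 CPM in the delayed combination against 10.9 to 13.0 CPM in PBS, were higher without overlap. The hosts lack working B and T cells, so which cells gave the B cell and the T and NK cell values is not known. The part of marrow cells in the histone sums was not tested.

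**Figure D2:**
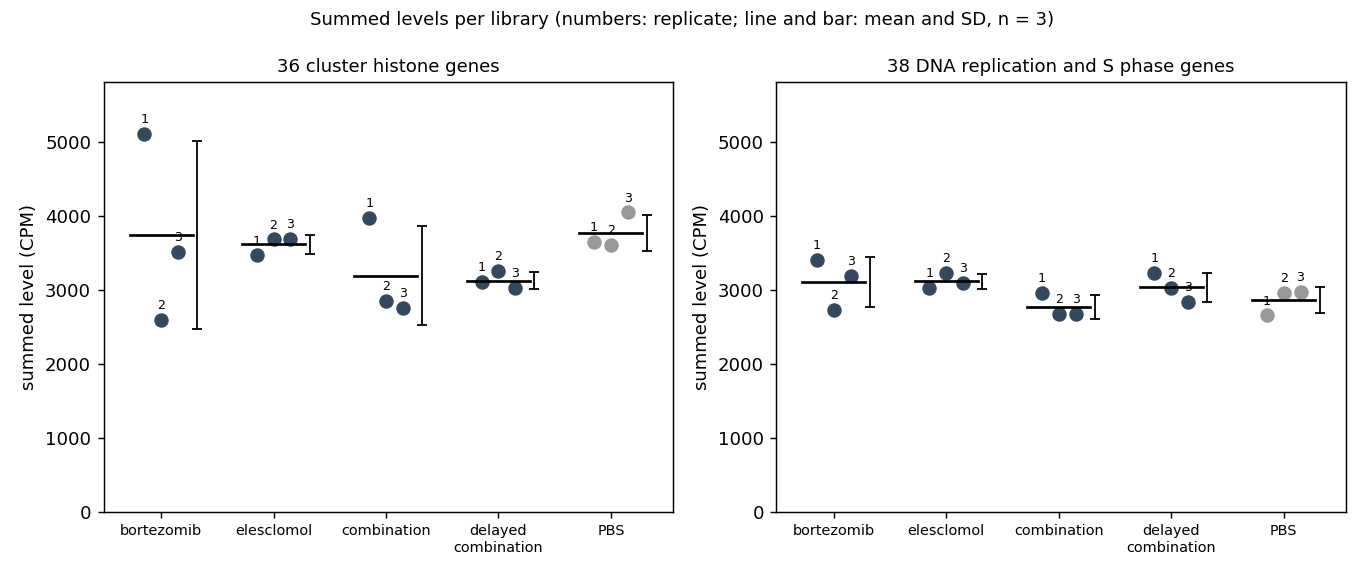
Summed level in CPM of the 36 cluster histone genes (left) and of 38 DNA replication and S phase genes (right) in each library, with the group mean as a line and its SD as a bar (n = 3). The delayed combination libraries sit at 3019.7 to 3248 CPM for the histone genes, below the PBS libraries at 3601 to 4042 CPM, while bortezomib spans 2590.5 to 5105 CPM.

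No cluster histone gene passed the test in any comparison with PBS (edgeR quasi-likelihood test, Benjamini-Hochberg adjusted p under 0.05 over 13085 genes). The share of all genes called was 0% for bortezomib, 0.0688% for elesclomol, 0% for the combination and 0% for the delayed combination, so few genes of any kind were called. At an unadjusted p under 0.05 the histone count was also 0 in all 4 comparisons. Of all 13085 tested genes, 1388 had such a p for bortezomib, 1056 for elesclomol, 1784 for the combination and 1447 for the delayed combination. Such counts over all genes were not made for the other fits. The histone counts of those fits therefore cannot be set against a share of all genes. The histone count depended on the fit. Without the 3 libraries of highest GC correlation it was 16 for bortezomib, 3 for elesclomol, 16 for the combination and 8 for the delayed combination, with 0 called after adjustment. With only the delayed combination and PBS libraries in the fit it was 12, again with 0 called. The smallest adjusted p among the 26 genes was 0.606 for bortezomib, 0.670 for elesclomol, 0.416 for the combination and 0.454 for the delayed combination. The 4 comparisons share the 3 PBS libraries. With limma voom and quality weights in place of edgeR, 8 of the 26 genes were called lower in the combination than in PBS. At the same adjusted threshold that test called 10.7% of all genes in either direction. In that fit 14 of the 26 had an unadjusted p under 0.05, for which no share over all genes was made. The median standard error of a log2 change over the 26 genes was 0.23 in each of the 4 comparisons.

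The median log2 change of the 26 genes was -0.04 for bortezomib (0.02 over all tested genes), -0.11 for elesclomol (0.00), -0.21 for the combination (0.01) and -0.29 for the delayed combination (0.01). Of the 26, 18 lay below 0 with bortezomib, 18 with elesclomol, 25 with the combination and 25 with the delayed combination. Leaving out single libraries moved the bortezomib value most. It was -0.35 without bortezomib 1 and 0.19 without bortezomib 2. The combination value was -0.38 without combination 1 and -0.10 without combination 2. For the delayed combination the values were -0.35 to -0.24 when any 1 library of either group was left out.

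In the count of genes whose libraries did not overlap, 0 of 26 lay below PBS with bortezomib (9.61% of all tested genes did), 5 with elesclomol (10.2%), 1 with the combination (10.9%) and 14 with the delayed combination (14.7%). The 5 with elesclomol were HIST2H2AC, HIST1H1C, HIST1H1D, HIST1H2AG and HIST4H4. No histone gene had all libraries above PBS in any treatment (10.5%, 9.55%, 11.3% and 12.8% of all genes did). Levels corrected for GC content and gene length gave 0 genes below PBS with bortezomib (8.56% of all), 3 with elesclomol (8.79%), 9 with the combination (9.88%) and 17 with the delayed combination (11.1%). The combination count thus was 9 with the correction and 1 without it. The 14 genes with the delayed combination were 3 H1, 5 H2A, 4 H2B, 1 H3 and 1 H4 gene.

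The genes at the ends of the range were as follows. With bortezomib the lowest changes were -0.28 ± 0.31 for HIST1H2AC, -0.28 ± 1.04 for HIST3H2A and -0.23 ± 0.21 for HIST4H4, and the highest 0.23 ± 0.18 for HIST1H1B, 0.09 ± 0.24 for HIST2H2BF and 0.08 ± 0.22 for HIST1H2BL (SE). With elesclomol the lowest were -0.51 ± 0.62 for HIST1H2AD, -0.41 ± 0.21 for HIST4H4 and -0.41 ± 0.41 for HIST1H4J, and the highest 1.90 ± 0.95 for HIST3H2A, 0.08 ± 0.24 for HIST2H2BF and 0.08 ± 0.18 for HIST1H1B. With the combination they were -0.60 ± 1.05 for HIST3H2A, -0.43 ± 0.31 for HIST1H2AC and -0.43 ± 0.29 for HIST1H2AG at the low end, and 0.02 ± 0.21 for HIST4H4, -0.07 ± 0.24 for HIST2H2BF and -0.08 ± 0.24 for HIST1H4H at the high end. None of these passed the test, and the changes with the delayed combination follow by class.

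**Figure D3:**
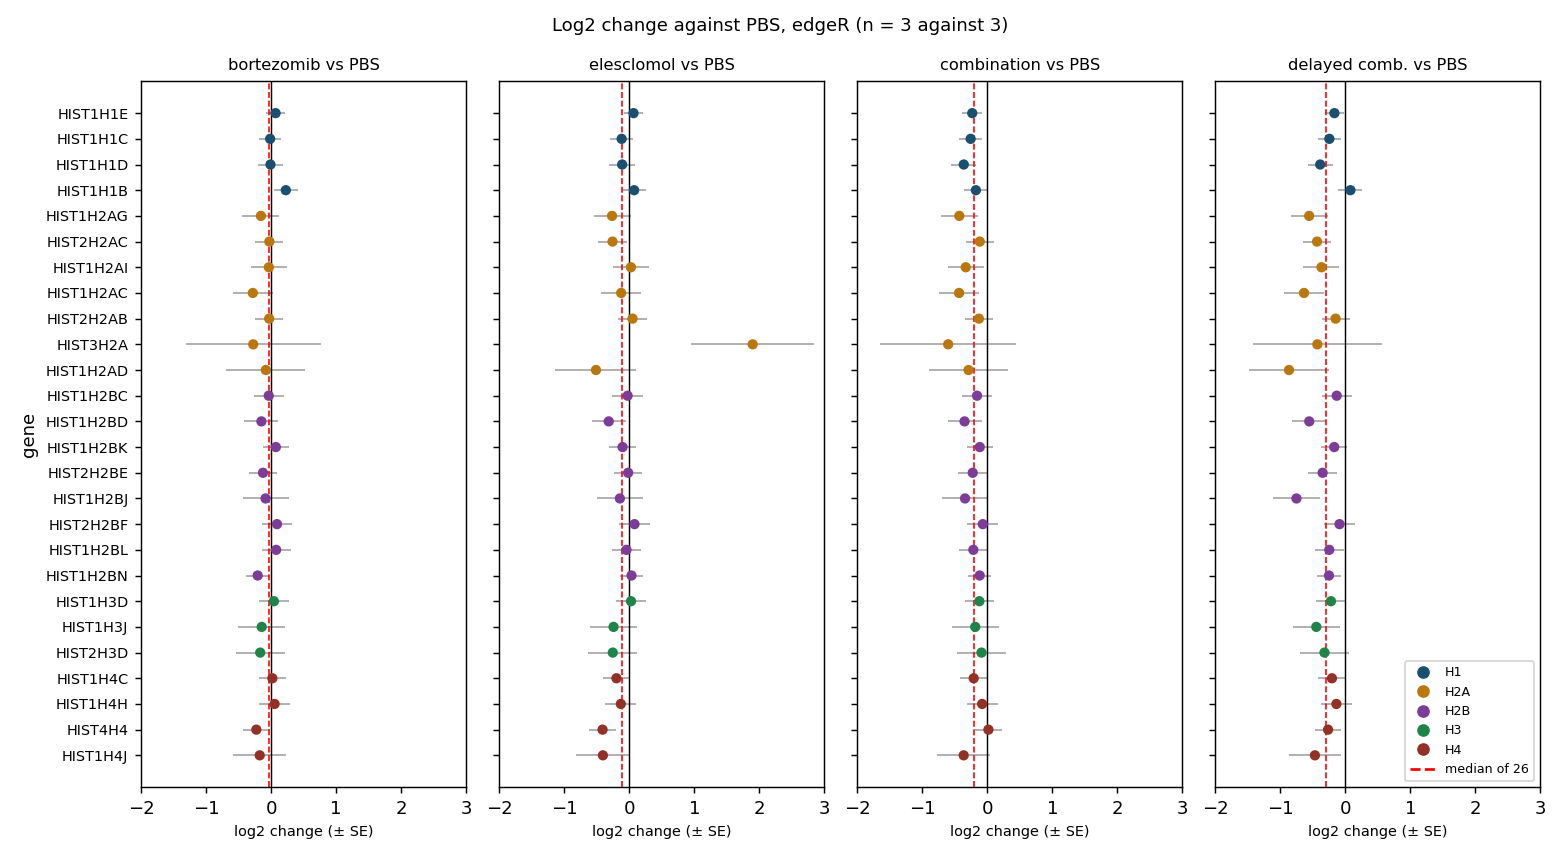
Log2 change against PBS with its standard error for the 26 tested genes in the 4 treatments (n = 3 against 3), ordered by histone class, with the median as a dashed line. No change passed the test. The medians lie at -0.04, -0.11, -0.21 and -0.29 from the left panel to the right.

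The 4 tested H1 genes code for linker histones. HIST1H1E was measured at 1124, 687 and 862 CPM in the bortezomib libraries, 850.5, 967 and 852 in the elesclomol libraries, 853, 669.7 and 649 in the combination libraries, 782, 751 and 737 in the delayed combination libraries and 862, 812 and 876 CPM in the PBS libraries. HIST1H1C was measured at 731, 388 and 502 CPM in the bortezomib libraries, 473, 515 and 524 in the elesclomol libraries, 545, 431 and 397 in the combination libraries, 483, 466 and 434 in the delayed combination libraries and 565, 529 and 546 CPM in the PBS libraries. In both genes bortezomib 1 was the highest library, and all 3 delayed combination libraries were below the 3 PBS libraries. HIST1H1D (ENSG00000124575) was measured at 319.7, 161 and 216 CPM in the bortezomib libraries, 222, 215 and 215 in the elesclomol libraries, 210.4, 196 and 141 in the combination libraries, 188, 188 and 161 in the delayed combination libraries and 234, 226 and 242 CPM in the PBS libraries. It was the one gene whose combination libraries all lay below those of PBS, and its delayed combination libraries did so too. HIST1H1B (ENSG00000184357) was measured at 213, 110.4 and 173 CPM in the bortezomib libraries, 149, 154 and 145 in the elesclomol libraries, 138, 108 and 130.3 in the combination libraries, 166, 152 and 131 in the delayed combination libraries and 122, 146 and 157 CPM in the PBS libraries. Its delayed combination and PBS libraries overlapped, and it was the single tested gene with a delayed combination change above 0. The log2 changes of the delayed combination against PBS were -0.17 ± 0.15 for HIST1H1E, -0.25 ± 0.17 for HIST1H1C, -0.39 ± 0.19 for HIST1H1D and 0.08 ± 0.18 for HIST1H1B (SE). Their adjusted p in edgeR lay between 0.462 and 0.862. Summed, the 6 H1 genes stood at 1462 to 1619 CPM in the delayed combination, against 1713 to 1821 CPM in PBS, without overlap.

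H2A pairs with H2B in the nucleosome, and 7 H2A genes were tested. HIST1H2AG (ENSG00000196787) was measured at 343, 124 and 201 CPM in the bortezomib libraries, 186, 222 and 213 in the elesclomol libraries, 245, 161 and 148 in the combination libraries, 171, 169.8 and 166 in the delayed combination libraries and 231, 236 and 278 CPM in the PBS libraries. Its delayed combination values lay close together and well below PBS, while its bortezomib values spread widely around PBS. HIST2H2AC (ENSG00000184260) was measured at 168, 90.3 and 104 CPM in the bortezomib libraries, 96.3, 109.5 and 104 in the elesclomol libraries, 150.1, 101 and 90.7 in the combination libraries, 79.7, 91.4 and 103 in the delayed combination libraries and 115, 124 and 131 CPM in the PBS libraries. Its elesclomol and delayed combination libraries were all below PBS. HIST1H2AC (ENSG00000180573), also known for polyadenylated transcripts, was measured at 129, 47.8 and 76.8 CPM in the bortezomib libraries, 81.4, 97.0 and 105 in the elesclomol libraries, 104, 67.6 and 57.4 in the combination libraries, 57.0, 79.7 and 62.5 in the delayed combination libraries and 95.6, 94.3 and 119 CPM in the PBS libraries. HIST1H2AI (ENSG00000196747) was measured at 147, 54.7 and 97.7 CPM in the bortezomib libraries, 113, 106 and 94.2 in the elesclomol libraries, 105, 78.5 and 60.8 in the combination libraries, 81.6, 80.9 and 75.7 in the delayed combination libraries and 87.7, 107 and 112 CPM in the PBS libraries. For both, the delayed combination libraries were below every PBS library and the other treatments overlapped PBS. HIST1H2AD (ENSG00000196866) had few counts, 4 to 35 per library, and its delayed combination libraries at 1.75, 1.91 and 0.566 CPM lay below PBS at 2.70, 2.58 and 2.42 CPM. Its log2 change of -0.87 ± 0.61 was the lowest of the 26 and had a large error. The others were -0.64 ± 0.31 for HIST1H2AC, -0.56 ± 0.28 for HIST1H2AG, -0.44 ± 0.22 for HIST2H2AC and -0.37 ± 0.28 for HIST1H2AI (SE). The edgeR adjusted p of these 5 H2A genes lay between 0.455 and 0.574. HIST2H2AB, at -0.15 ± 0.22, overlapped PBS and ranged over 43.9 to 88.4 CPM. All 7 H2A changes were below 0 with a median of -0.44. Summed, the 9 H2A genes averaged 474 ± 31.9 CPM in the delayed combination and 655 ± 62.8 CPM in PBS (SD, n = 3 each), without overlap.

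The 8 tested H2B genes also all had delayed combination changes below 0, with a median of -0.25. HIST1H2BC (ENSG00000180596), known for polyadenylated transcripts, was measured at 216, 107 and 164 CPM in the bortezomib libraries, 134, 185 and 174 in the elesclomol libraries, 193, 118 and 139 in the combination libraries, 136, 166 and 156 in the delayed combination libraries and 157, 151 and 193 CPM in the PBS libraries. Every treatment overlapped PBS. HIST1H2BD (ENSG00000158373), which has a polyadenylated form too, was measured at 171, 83.5 and 114 CPM in the bortezomib libraries, 102, 107 and 121 in the elesclomol libraries, 156, 79.1 and 86.4 in the combination libraries, 92.6, 90.5 and 96.1 in the delayed combination libraries and 137, 118 and 155 CPM in the PBS libraries. Its delayed combination libraries were nearly alike and lay below PBS. HIST1H2BJ (ENSG00000124635), the neighbour of HIST1H2AG, was measured at 135, 46.3 and 70.8 CPM in the bortezomib libraries, 72.1, 79.9 and 90.6 in the elesclomol libraries, 107, 54.4 and 49.9 in the combination libraries, 52.0, 61.6 and 45.8 in the delayed combination libraries and 80.3, 85.2 and 103 CPM in the PBS libraries. Again the delayed combination was below every PBS library. HIST1H2BK (ENSG00000197903) was measured at 161, 84.4 and 106 CPM in the bortezomib libraries, 89.1, 109.8 and 113 in the elesclomol libraries, 131, 83.7 and 93.8 in the combination libraries, 102, 98.6 and 96.8 in the delayed combination libraries and 103, 111 and 120.1 CPM in the PBS libraries. HIST2H2BE (ENSG00000184678) was measured at 126, 57.4 and 82.1 CPM in the bortezomib libraries, 94.7, 100.2 and 92.5 in the elesclomol libraries, 100.4, 75.7 and 72.6 in the combination libraries, 67.0, 76.5 and 84.7 in the delayed combination libraries and 91.1, 87.8 and 112 CPM in the PBS libraries. The delayed combination libraries of both were below those of PBS, by less in HIST1H2BK than in HIST1H2BD. The log2 changes were -0.75 ± 0.35 for HIST1H2BJ, -0.56 ± 0.26 for HIST1H2BD, -0.35 ± 0.22 for HIST2H2BE, -0.17 ± 0.20 for HIST1H2BK and -0.13 ± 0.23 for HIST1H2BC. Their adjusted p in edgeR lay between 0.454 and 0.809. HIST2H2BF, at -0.09 ± 0.23, and HIST1H2BL, at -0.25 ± 0.22, overlapped PBS, as did HIST1H2BN at -0.25 ± 0.18. HIST2H2BF ranged over 27.9 to 58.9 CPM in the 15 libraries, HIST1H2BL over 17.0 to 33.4 CPM and HIST1H2BN over 17.0 to 28.9 CPM. Summed H2B levels were 519 to 580.4 CPM in the delayed combination, against 644 to 793 CPM in PBS, without overlap.

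H3 and H4 form the tetramer at the core of the nucleosome. HIST1H3D (ENSG00000197409) was measured at 227, 102 and 147 CPM in the bortezomib libraries, 146, 151 and 175 in the elesclomol libraries, 179, 120.0 and 126 in the combination libraries, 124, 141 and 132 in the delayed combination libraries and 156, 142 and 165 CPM in the PBS libraries. Its delayed combination libraries were all below PBS. HIST1H3J (ENSG00000197153) was measured at 102, 32.8 and 50.8 CPM in the bortezomib libraries, 52.2, 56.9 and 65.3 in the elesclomol libraries, 86.9, 50.5 and 43.6 in the combination libraries, 45.6, 61.7 and 44.2 in the delayed combination libraries and 54.4, 69.1 and 82.5 CPM in the PBS libraries. HIST2H3D (ENSG00000183598) was measured at 38.1, 14.3 and 15.2 CPM in the bortezomib libraries, 28.7, 12 and 24.3 in the elesclomol libraries, 28.7, 22.9 and 20.8 in the combination libraries, 19.8, 26.2 and 16.1 in the delayed combination libraries and 26.5, 25.7 and 25.2 CPM in the PBS libraries. In both, the delayed combination overlapped PBS. The delayed combination changes of these 3 genes had a median of -0.32. HIST1H4C (ENSG00000197061), the highest H4 gene, was measured at 295, 160.0 and 209 CPM in the bortezomib libraries, 165, 186 and 221 in the elesclomol libraries, 242, 155 and 171 in the combination libraries, 175, 213 and 182 in the delayed combination libraries and 212, 199 and 246 CPM in the PBS libraries. HIST1H4H (ENSG00000158406) was measured at 204, 94.9 and 129 CPM in the bortezomib libraries, 118, 119 and 142 in the elesclomol libraries, 172, 107 and 112 in the combination libraries, 132, 134 and 109.6 in the delayed combination libraries and 127, 134 and 152 CPM in the PBS libraries. In both, every treatment overlapped PBS. HIST4H4 (ENSG00000197837) was measured at 29.9, 19.4 and 21.1 CPM in the bortezomib libraries, 21.7, 15.1 and 25.6 in the elesclomol libraries, 34.9, 26.7 and 22.2 in the combination libraries, 19.9, 25.4 and 23.8 in the delayed combination libraries and 27.7, 26.1 and 29.3 CPM in the PBS libraries. Its elesclomol and delayed combination libraries were below PBS, and its combination libraries were not. In the test of interaction between bortezomib and elesclomol (the combination minus both single drugs plus PBS), the 26 genes had a median of -0.08, with 18 below 0. HIST4H4 had the highest value there, 0.66 ± 0.30 (SE, edgeR adjusted p = 0.550), where 0.00764% of all genes were called and 0 histone genes. HIST1H4J (ENSG00000197238) was measured at 6.42, 1.52 and 3.20 CPM in the bortezomib libraries, 2.88, 3.63 and 3.28 in the elesclomol libraries, 4.07, 2.55 and 3.38 in the combination libraries, 3.17, 2.72 and 3.47 in the delayed combination libraries and 2.25, 5.77 and 4.66 CPM in the PBS libraries. It had 10 to 56 counts per library, overlapped PBS in every treatment and had a delayed combination change of -0.47 ± 0.40. Summed H4 levels overlapped, at 318 to 375 CPM in the delayed combination and 365 to 431 CPM in PBS. Summed H3 levels did not, at 189.9 to 229.6 CPM in the delayed combination and 238 to 273 CPM in PBS.

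**Figure D4:**
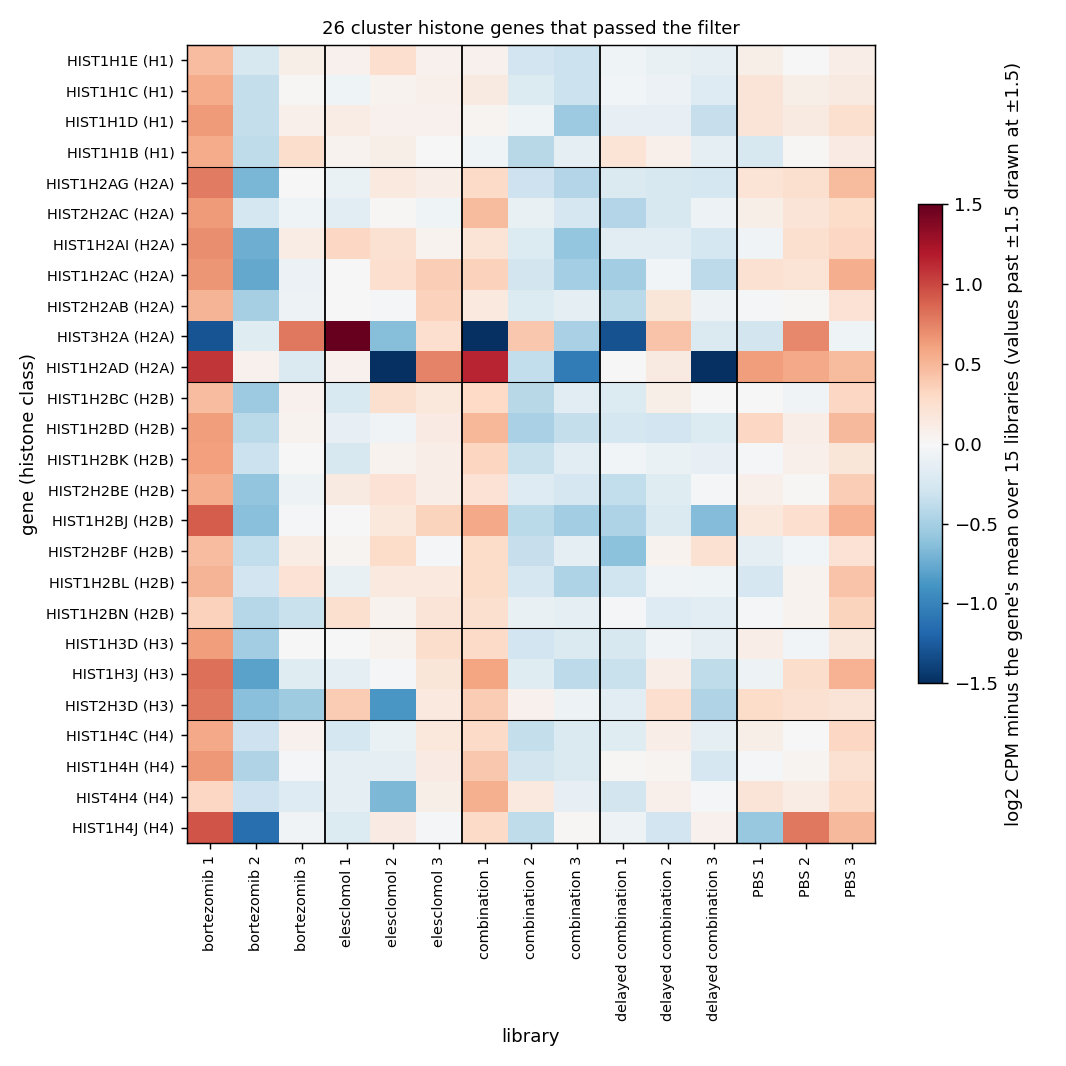
Log2 CPM of the 26 tested genes in each library, minus the gene's own mean over the 15 libraries, by histone class and treatment. Bortezomib 1 is high and bortezomib 2 low across nearly all genes, 3, 11 and 2 of the 26 genes lie above their own mean in delayed combination 1, 2 and 3, and HIST3H2A is far above its mean in elesclomol 1.

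Genes known for polyadenylated transcripts and the others had similar medians. The 6 known for them (HIST1H1C, HIST1H2AC, HIST1H2BC, HIST1H2BD, HIST1H2BK and HIST2H2BE) had a median delayed combination change of -0.30, with 6 of 6 below 0, and the other 20 tested genes one of -0.29, with 19 of 20 below 0. No test of that difference was made.

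Within groups, the bortezomib libraries differed most. Bortezomib 1 was the highest of all 15 libraries for 23 of the 26 genes and bortezomib 2 the lowest for 12. The ratio of bortezomib 1 to bortezomib 2 had a median of 2.01 over the 26 genes, with HIST3H2A the 1 exception to the direction. The GC correlation was 0.51 in bortezomib 1 and -0.31 in bortezomib 2. After the GC and length correction, the median deviation of the 26 genes from their means was 0.47 in bortezomib 1 and -0.44 in bortezomib 2 on the log2 scale. Before it, the deviation was 0.62 in bortezomib 1 and -0.41 in bortezomib 2. Over all libraries, the ratio of highest to lowest was 1.70 to 6.91 for 25 genes, with a median of 2.16.

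The treatments were also compared with each other. The combination against bortezomib had a median log2 change of -0.19, with 23 of 26 genes below 0 and 0 called (0% of all genes), and it was 0.19 without bortezomib 1. No gene had all combination libraries below (3.93% of all genes) or above (4.26%) all bortezomib libraries. The gene with the most negative change was HIST1H1B at 138, 108 and 130.3 CPM in the combination libraries and 213, 110.4 and 173 CPM in the bortezomib libraries, which overlapped, with a change of -0.40 ± 0.18 (edgeR adjusted p = 0.999). The combination against elesclomol had a median of -0.15, with 19 of 26 below 0 and 0 called (0%), and it was -0.35 without combination 1 and -0.055 without combination 3. Here HIST1H1D and HIST1H1B had all combination libraries below all elesclomol libraries, as did 7.47% of all genes, and 0 lay above without overlap (8.57%). The delayed combination against bortezomib had a median of -0.24, with 26 of 26 below 0 and 0 called (0%), and it was 0.062 without bortezomib 1. No gene lay wholly below (3.85% of all genes) or above (2.83%). The delayed combination against the combination had a median of -0.08, with 20 of 26 below 0 and 0 called (0%). Its direction turned without combination 1 (0.13, with 4 of 26 below 0), without the 3 libraries of highest GC correlation (0.098, with 8 below) and with voom (0.068, with 7 below). Again no gene lay wholly below (4.05% of all genes) or above (3.54%). At unadjusted p under 0.05, edgeR gave 1 histone gene for the combination against bortezomib, 1 for the combination against elesclomol and 0 for the other 2 of these comparisons. Over all 13085 tested genes it gave 554 for the combination against bortezomib and 1597 for the combination against elesclomol. For the delayed combination it gave 460 against bortezomib and 344 against the combination.

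HIST3H2A (ENSG00000181218), an H2A gene of the small HIST3 cluster, had the highest ratio of highest to lowest library among the 26 tested genes, at 34.9. It stood at 96.0, 5.44 and 10.1 CPM in the elesclomol libraries, against 6.97, 14.0 and 8.11 CPM in the PBS libraries, and at 2.75 to 14.7 CPM in all 14 libraries other than elesclomol 1. Elesclomol 1 alone was high, with 632 counts, while elesclomol 3 lay within the PBS range and elesclomol 2 below it. The log2 change for elesclomol against PBS was 1.90 ± 0.95 (edgeR adjusted p = 0.670), and it was -0.33 without elesclomol 1. Against elesclomol, the combination change of HIST3H2A was -2.50 ± 0.97 (edgeR adjusted p = 0.338). A further 5 low genes were also highest in that library. HIST1H2BA had 28 counts there against 0 to 6 elsewhere, HIST1H1A 26 against 1 to 5, HIST3H3 22 against 0 to 7, and HIST3H2BB, which shares its promoter with HIST3H2A, 11 against 1 to 4. HIST1H2AA had 1 count there and at most 1 in any other.

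Some lists of marrow marker genes were also highest in the same library and others were not. The erythroid list summed to 343 CPM in elesclomol 1, against 14.9 to 39.8 CPM in the other 14, with 6 of its 10 genes highest there and HBA1 at 0 in every library. The granulocyte list summed to 139.8 CPM, against 6.09 to 30.9 CPM, with 8 of 9 genes highest there. The endothelial list summed to 11.4 CPM, against 0.14 to 5.66 CPM, with 2 of 4 genes highest there. The macrophage list, at 7.44 CPM against 3.07 to 15.6 CPM, the stromal and bone list, at 203 CPM against 105 to 241 CPM, and the B cell list, at 15.2 CPM against 10.3 to 37.9 CPM, lay within the range of the other 14 libraries. So did the myeloma list, at 14583 CPM against 13009 to 16285 CPM, and the T and NK cell list was at 0.759 CPM, at the low end of the others. Of the histones outside the clusters, H2AFJ was at 21.9 CPM in elesclomol 1 and 3.80 to 6.98 CPM elsewhere. The part of marrow cells in these histone values was not tested. With the level of the marrow markers as a covariate, the elesclomol median of the 26 genes was 0.02 in place of -0.11.

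**Figure D5:**
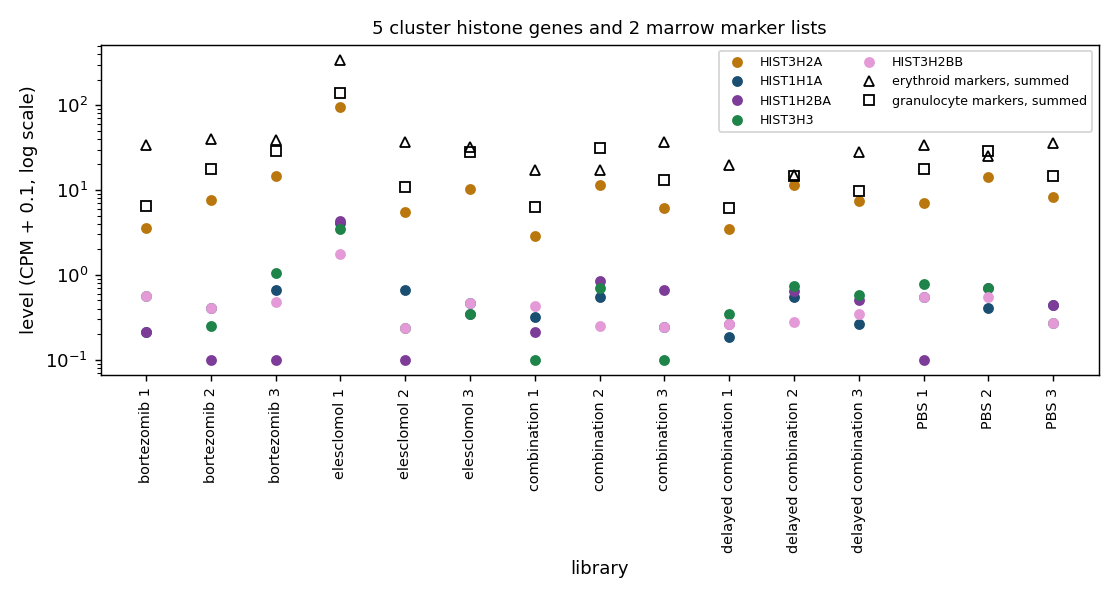
Levels in CPM plus 0.1 on a log axis of HIST3H2A and 4 low cluster histone genes (filled circles) and the summed levels of erythroid (triangles) and granulocyte (squares) markers in each library. All lie highest in elesclomol 1, where HIST3H2A reaches 96.0 CPM and the erythroid list 343 CPM.

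Genes of related functions were counted in the same way. Of 38 DNA replication and S phase genes (among them RRM2, MCM4, MCM3, RFC1, RRM1 and MCM7) 0 passed the test in any treatment, and with the delayed combination 29 lay above 0, with a median of 0.11. Summed, they stood at 3229.9, 3028 and 2837 CPM in the delayed combination libraries, against 2651, 2955 and 2972 CPM in the PBS libraries, which overlap. The ratio of the histone sum to the S phase sum was therefore 0.960, 1.07 and 1.06 in the delayed combination, against 1.37, 1.22 and 1.36 in PBS, without overlap. It was 1.5, 0.949 and 1.10 in bortezomib, 1.15, 1.14 and 1.19 in elesclomol and 1.34, 1.07 and 1.03 in the combination. All 3 elesclomol ratios also lay below the PBS range, and the elesclomol S phase sums, at 3021 to 3225 CPM, lay above the PBS sums.

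Of 24 G2 and mitosis genes 0 passed in any treatment, and 24 lay below 0 with elesclomol and 18 with the delayed combination, with medians of -0.24 for elesclomol and -0.05 for the delayed combination. Their sums were 1879.5 to 2148 CPM in bortezomib and 1715 to 2277 CPM in the combination, both below 2283 to 2730.1 CPM in PBS without overlap. Of 33 genes of histone transcription and 3′ end processing 0 passed, and 21 lay above 0 with the delayed combination (median 0.03). SLBP, which binds the stem-loop, averaged 93.4 ± 2.12 CPM in the delayed combination and 89.3 ± 9.52 CPM in PBS (SD, n = 3 each), a log2 change of 0.06 ± 0.10 (SE). NPAT, a coactivator that cyclin E and its kinase act on at histone promoters, averaged 45.4 ± 22 CPM in the delayed combination and 71.8 ± 3.61 CPM in PBS, with a log2 change of -0.66 ± 0.46 (edgeR adjusted p = 0.552). It was at 20.1 CPM in delayed combination 2, 19.5 CPM in combination 1 and 29.2 CPM in bortezomib 1, the 3 libraries with the highest GC correlations. Of the 19 chaperones that carry histones to DNA 0 passed (median 0.03, 12 above 0).

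Of 12 histone genes outside the clusters, which code for replacement histones, 10 were tested and 0 passed. H3F3B, which codes for a replacement H3 and is made throughout the cell cycle, averaged 143.2 ± 25.7 CPM in the delayed combination and 221 ± 8.0 CPM in PBS, a log2 change of -0.63 ± 0.12 (edgeR adjusted p = 0.165). With the combination its change was -0.65 ± 0.12 (adjusted p = 0.158). H1FX averaged 244 ± 63.6 CPM in the delayed combination and 297 ± 6.84 CPM in PBS. H2AFZ averaged 219.8 ± 38.3 CPM in the delayed combination and 201.6 ± 25.9 CPM in PBS, and H2AFY, H2AFV and H2AFX had changes of -0.02 ± 0.09, -0.11 ± 0.11 and 0.02 ± 0.22.

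Most cluster histone genes followed 1 profile over the 15 libraries, which share depth and base composition effects. Pearson's r of log2 CPM with the summed level was 0.98 for HIST1H2AG and 0.97 for HIST1H1C, and lowest for HIST3H2A at -0.17 and HIST4H4 at 0.46. Each gene is itself part of that sum, which can raise its r, most for genes of high level. The back-to-back pairs had r of 0.95 (HIST1H2AG and HIST1H2BJ), 0.85 (HIST1H2AC and HIST1H2BC), 0.83 (HIST2H2AC and HIST2H2BE) and 0.82 (HIST1H2AI and HIST1H2BL). The median was 0.80 over 48 H2A and H2B pairs, which include the back-to-back pairs and ranged over 0.06 to 0.96. The highest r of the 48 was thus not that of a back-to-back pair. Outside the clusters the genes most like the sum were CD74 (r = 0.89), PTPA (0.85), MICB (0.83), EIF4G2 (0.82), E2F2 (0.82) and NRM (0.81), over 15 libraries.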

How the data were processed

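Frozen marrow pellets gave RNA by Trizol extraction for stranded, ribosomal RNA-depleted libraries, per the labels' protocols. The tools were STAR 2.5.4b and featureCounts 1.6.1 with build GRCh37, per the submitters' processing notes. The deposited values are raw counts per Ensembl gene, 57773 identifiers in each of 15 libraries, and the authors applied no scaling that the values show. Strand setting, annotation release and the handling of multiply aligned and mouse reads: not given in the sources used here. Symbols came from GENCODE 29 by identifier (52338 named; the 5435 without a name held 0.889% to 1.31% of counts and stayed in the table; 0 lines lacked an identifier).

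Differences were tested with edgeR 4.0.16 in R 4.3.3 (quasi-likelihood F test, robust, TMM factors, filterByExpr with a minimum count of 10, leaving 13085 genes). All 15 libraries entered 1 model of the 5 group means (common biological coefficient of variation 0.171), and 9 comparisons were made with Benjamini-Hochberg adjustment over all tested genes, calling at 0.05. CPM use TMM-scaled library sizes. Groups follow the sample titles, and replicates differed by more than sampling noise in every group. The PBS libraries differed least, with chi-square over its degrees of freedom at 2.25 to 3.24, against 5.64 to 27.3 in the treated groups. This value also rises with depth. The model shares its estimate of spread over all groups. Same-numbered libraries deviated together for bortezomib and the combination, where all 3 pairs correlated over 0.1 (0.66, 0.52 and 0.12), and not for any other pair of groups. The pair at 0.66, bortezomib 1 and combination 1, also had high GC correlations, 0.51 and 0.49. Whether the numbers mark pairs is not known. The main fit therefore held no pairs, and a replicate block was an alternative fit only. The code was tested on simulated counts. Python 3.11.15, pandas 2.3.3 and matplotlib 3.10.9 made the other tables and plots. The floors for 0 counts cover counting error only. Standard errors of log2 changes come from the edgeR fit and also hold the spread between libraries.

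The genes and gene lists were chosen with earlier results of these data known. Named with values were the 4 highest genes of each class, the 3 highest and 3 lowest changes against PBS, genes with near-identical copies, up to 6 high members of each list, and the 6 most similar genes; other genes were named after their values were seen. The alternatives included the DESeq2 1.42.0 Wald test, its size factors in edgeR, voom with quality weights (limma 3.58.1), 2 other filters, library sizes without abundant RNAs, only the groups compared, a replicate block, a GC and length correction (loess, span 0.3), leaving out 3 GC-rich libraries, a marrow marker covariate and leaving out each library. Medians without HIST3H2A and the corrected counts of groups that do not overlap were added after seeing the data.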

Additional observations from a re-analysis of the deposited data

How the results depend on the processing

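No histone gene was called in any comparison by edgeR, DESeq2, DESeq2 size factors, a stricter filter, smaller fits, corrections or left-out libraries, and 2 other settings made calls. With limma voom and quality weights 8 were called lower in the combination than in PBS (HIST1H1D, HIST1H1C, HIST1H1E, HIST1H2AG, HIST1H2BD, HIST1H2AC, HIST1H2AI and HIST1H2BJ, adjusted p 0.0116 to 0.0474), where voom called 10.7% of all genes. With no filter 1 was called lower in the combination than in elesclomol, HIST1H1A (log2 -2.48, adjusted p = 0.0495, 0.83% of all genes called). The cause was not tested. Without the 3 GC-rich libraries (bortezomib 1, combination 1 and delayed combination 2) the median change was -0.35 for bortezomib against PBS and 0.055 for the delayed combination against bortezomib. Leaving out 1 library gave medians of -0.35 to 0.19 for bortezomib against PBS, -0.39 to 0.19 for the combination against bortezomib, -0.45 to 0.062 for the delayed combination against bortezomib and -0.31 to 0.25 for the interaction. For the delayed combination against PBS every alternative kept the median below 0, at -0.41 to -0.22, and its smallest adjusted p over them was 0.0679 (only the groups compared). For the combination against PBS the medians were -0.38 to -0.10, for the combination against elesclomol -0.35 to -0.055, and for the delayed combination against the combination -0.17 to 0.13. With the replicate block the combination against bortezomib, where same-numbered libraries deviated together, had a median of -0.17 and 0 genes called, which changed no call. The numbers are not a known pairing. Over all groups, 6 of 30 same-numbered pairs correlated over 0.1, against 15 of 60 others, and 6 of 15 libraries were most like one of their own number. With the block the medians against PBS were -0.08, -0.11, -0.23 and -0.29 and 0 genes were called. Over all genes, calls for bortezomib, elesclomol, the combination and the delayed combination against PBS were 0, 9, 0 and 0 in edgeR, 9, 49, 51 and 51 in DESeq2, 741, 54, 1394 and 168 in voom, and 76, 129, 211 and 193 with no filter. Depth limits HIST1H2AD, HIST1H4J and the 10 untested genes most.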
